A study of Mus musculus with 6 samples.

Results

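The cell cycle control genes of cultured enteric progenitor cells were examined here. The 45 genes encode cyclins, cyclin-dependent kinases (CDKs), their phosphatases and inhibitory kinases, CDK inhibitors and the retinoblastoma family of pocket proteins. They also encode the E2F and DP transcription factors and 3 proteins of the MuvB complex or its partners. The list was drawn up by gene name and function, and no measured value entered the rule for membership. Earlier results of these data were known when it was made, so its counts of called genes are descriptions. Each gene was read from the transcript cluster, the probe set of 1 transcribed locus, that carries its symbol alone, and where several clusters did so the brightest of them, averaged over the 6 arrays, was used. All 45 of the 45 listed genes were measured, out of 19938 genes with a cluster of their own.

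The samples were enterospheres, free-floating spheroids grown from dissociated muscle layers of the gut of newborn C57BL/6 mice of up to 12 hours of age. Progenitor and glial cells, neurons, and cells of muscle and connective tissue share these spheroids, so that a value is an average over a mixed culture. In the proliferation group (3 arrays), the spheroids stayed in medium with EGF and FGF for all 11 days. In the differentiation group (3 arrays), the spheroids had the same medium for 9 days and were then kept for the last 2 days in medium without EGF and FGF, to which ascorbic acid-2-phosphate was added. No genetic modification is named for either group. The labels list the supplement B27 for the proliferation medium, whereas the methods of the study describe a single addition before seeding, so it is not settled whether the groups differed in it. The removal of both growth factors and the addition of ascorbate coincide in these groups and cannot be told apart. The labels give 3 mice per sample, and according to the methods of the study each independent experiment started from pups of a single litter. RNA was measured on a whole-transcript mouse GeneChip, and all values are log2 values after robust multi-array average (RMA) normalization. A difference is the mean of differentiation minus the mean of proliferation, and a gene is called lower or higher where the adjusted p of limma (Benjamini-Hochberg over all 35556 clusters) was under 0.05. In a mixed culture, fewer cells of a type and less RNA per cell cannot be told apart.

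As background, a cell that is driven to divide by growth factors first builds up D-type cyclins, which activate CDK4 and CDK6. These kinases, and then CDK2 with the E-type cyclins, phosphorylate the pocket proteins and so release E2F factors, which switch on genes for DNA replication. Later in the cycle, a complex of MuvB with B-MYB and FOXM1 switches on genes for G2 and mitosis, among them those of the partners of CDK1. In resting cells, MuvB together with a pocket protein and E2F4 forms the repressor DREAM on many of the same promoters. CDK inhibitors of the INK4 and CIP/KIP families bind the kinases or their complexes and hold cells in G1.

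In differentiation, 19 of the 45 genes were lower, 2 were higher and 24 did not pass the test. Among all clusters, 2.15% were called lower and 1.95% were called higher. The count depended on single arrays, with 10 genes lower and 0 higher without differentiation array 1, and 11 lower and 1 higher without proliferation array 3. The difference was negative for 36 of the 45 genes and positive for 9, with a median of -0.62 on the log2 scale, beside a median of 0.025 over all clusters. All 19 lower genes fell by at least 1.5-fold. In 31 genes every differentiation array was below every proliferation array, and in 3 genes every differentiation array was above them, whereas over all clusters such a separation downwards was found in 10.4% and upwards in 11.8%. Another 10 genes that were not called had a negative difference with an unadjusted p under 0.05, so that the number of genes below the threshold depends on the adjustment.

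**Figure D1:**
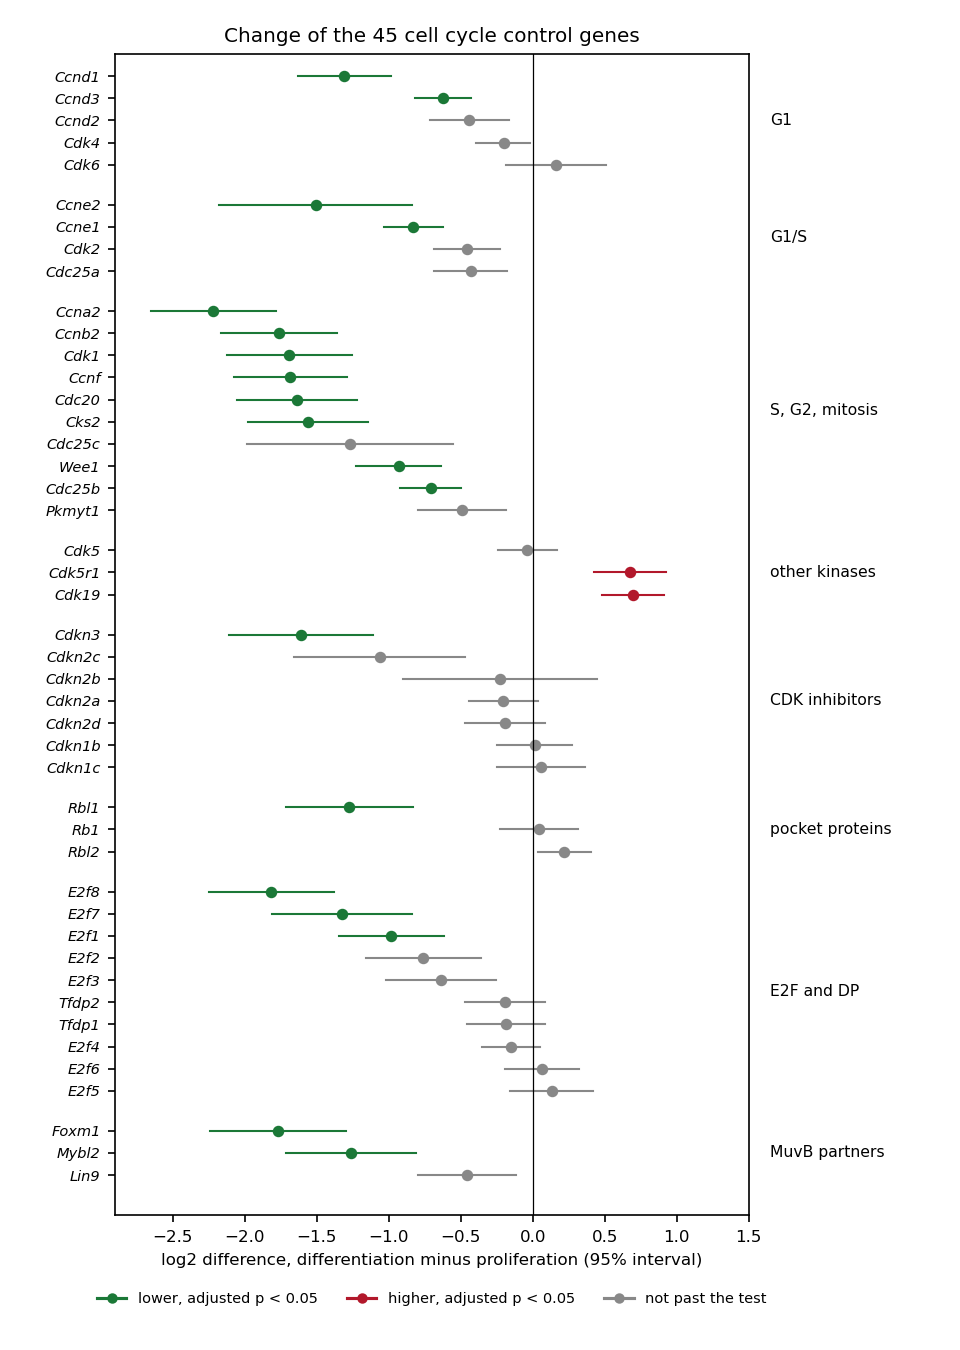
Log2 difference between differentiation and proliferation for each of the 45 genes, with the 95% interval of the limma fit, grouped by role (points: difference, bars: interval, n = 3 arrays per group). All points of the S, G2 and mitosis group lie left of 0, down to -2.22 for Ccna2, while Cdk5r1 and Cdk19 are the called genes to the right of 0.

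The median difference was larger for the late phases of the cycle than for G1. It was -0.44 for the 5 G1 cyclins and kinases (2 lower), -0.64 for the 4 genes of the G1/S step (2 lower) and -1.60 for the 10 genes of S, G2 and mitosis (8 lower). The 3 genes of MuvB and its partners, Lin9, Mybl2 and Foxm1, had a median of -1.26 (2 lower). The 10 E2F and DP factors had a median of -0.42 (3 lower), the 7 CDK inhibitors -0.21 (1 lower) and the 3 pocket proteins 0.04 (1 lower). These medians are descriptions without a test.

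Of the D-type cyclins, which link growth factor signals to the cell cycle, Ccnd1 and Ccnd3 were lower in differentiation. Ccnd1 was at 11.70, 12.23 and 11.95 in the proliferation arrays and at 10.62, 10.68 and 10.66 in the differentiation arrays. Its difference was -1.31 (SE 0.14), a 2.48-fold lower level (adjusted p = 0.00578), and the call held without any single array. Ccnd3 was at 11.04, 11.17 and 11.17 in proliferation and at 10.46, 10.52 and 10.54 in differentiation. The difference of Ccnd3, -0.62 (SE 0.08, adjusted p = 0.0107), was less firm, since the call was lost without proliferation array 3 or without differentiation array 1 (adjusted p up to 0.073). Ccnd2 was at 11.15, 10.75 and 10.98 in proliferation and at 10.47, 10.54 and 10.55 in differentiation, so its groups did not overlap either. With a difference of -0.44 (SE 0.12, adjusted p = 0.103) Ccnd2 did not pass the test, and it did pass without proliferation array 2 (adjusted p = 0.046). The kinases that these cyclins activate did not pass the test. Cdk4 had a difference of -0.20 (adjusted p = 0.274) and Cdk6 one of 0.16 (adjusted p = 0.677).

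At the G1/S step, both E-type cyclins, the activators of CDK2, were lower. Ccne1 was at 8.87, 8.95 and 8.90 in proliferation and at 7.96, 8.11 and 8.15 in differentiation, with a narrow spread in both groups. The difference of Ccne1 was -0.83 (SE 0.09, 1.78-fold, adjusted p = 0.00571) and remained past the threshold without any single array. Ccne2 was at 7.56, 8.73 and 8.04 in proliferation and at 6.56, 6.81 and 6.44 in differentiation. The proliferation arrays of Ccne2 were spread over more than 1 log2 unit, and the 2.85-fold lower level (difference -1.51, SE 0.28, adjusted p = 0.0346) was no longer called without proliferation array 3 or without any 1 of the differentiation arrays (adjusted p up to 0.144). Cdk2, the kinase partner, was at 9.04, 9.20 and 9.09 in proliferation and at 8.52, 8.71 and 8.73 in differentiation. Its difference of -0.46 (SE 0.10) lay just above the threshold (adjusted p = 0.0509). Cdc25a, a phosphatase that removes inhibitory phosphates from CDK2, had a difference of -0.43 (SE 0.11, adjusted p = 0.0875). In all 4 genes of this step the groups did not overlap.

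The genes of S phase, G2 and mitosis held 6 of the 14 called decreases of at least 2-fold. Cyclin A2 (Ccna2), which serves both CDK2 in S phase and CDK1 in G2, was at 10.47, 11.19 and 10.80 in proliferation and at 8.47, 8.63 and 8.70 in differentiation. With a difference of -2.22 (SE 0.18, 4.65-fold, adjusted p = 0.00316) it had the largest change of the 45 genes. The mitotic cyclin Ccnb2 was at 10.10, 10.67 and 10.39 in proliferation and at 8.40, 8.73 and 8.74 in differentiation (difference -1.76, SE 0.17, adjusted p = 0.00475). Cdk1, the mitotic kinase itself, was at 9.87, 10.47 and 10.15 in proliferation and at 8.20, 8.60 and 8.62 in differentiation (difference -1.69, SE 0.18, adjusted p = 0.00632). In these 3 genes the lowest proliferation array was more than 1 log2 unit above the highest differentiation array.

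The other genes of this group include regulators of CDK1 and its cyclins. Ccnf, a cyclin with an F-box that serves a ubiquitin ligase, was at 7.94, 8.54 and 8.32 in proliferation and at 6.45, 6.56 and 6.75 in differentiation (difference -1.68, SE 0.17, adjusted p = 0.00488). Cdc20, the activator of the anaphase-promoting complex, was at 8.34, 9.00 and 8.66 in proliferation and at 6.87, 7.08 and 7.14 in differentiation (difference -1.64, SE 0.18, adjusted p = 0.00597). Cks2, a small subunit that binds CDK1, was at 9.03, 9.72 and 9.30 in proliferation and at 7.69, 7.84 and 7.84 in differentiation (difference -1.56, SE 0.18, adjusted p = 0.00685). The groups of these genes lay apart, and the calls of Ccna2, Ccnb2, Ccnf, Cdk1, Cks2 and Cdc20 held without any single array. Of the 4 regulators of the inhibitory phosphates on CDK1, 2 passed the test. Wee1, a kinase that adds them, was lower by 1.91-fold (difference -0.93, SE 0.12, adjusted p = 0.0112; lost without proliferation array 3 or differentiation array 1, adjusted p up to 0.071). Cdc25b, a phosphatase that removes them, was lower by 1.64-fold (difference -0.71, SE 0.09, adjusted p = 0.00923; lost without differentiation array 1, adjusted p = 0.0637). A kinase and an opposing phosphatase were thus both among the lower genes. Cdc25c was at 5.84, 6.90 and 5.98 in proliferation and at 4.89, 4.69 and 5.32 in differentiation, and its difference of -1.27 (SE 0.30) did not pass the test (adjusted p = 0.0768). It was the only gene of the 45 with a mean below the median cluster in 1 group. Pkmyt1, which encodes a membrane-bound inhibitory kinase, had a difference of -0.49 (SE 0.13, adjusted p = 0.105). All 10 genes of the group had a negative difference and groups that did not overlap.

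**Figure D2:**
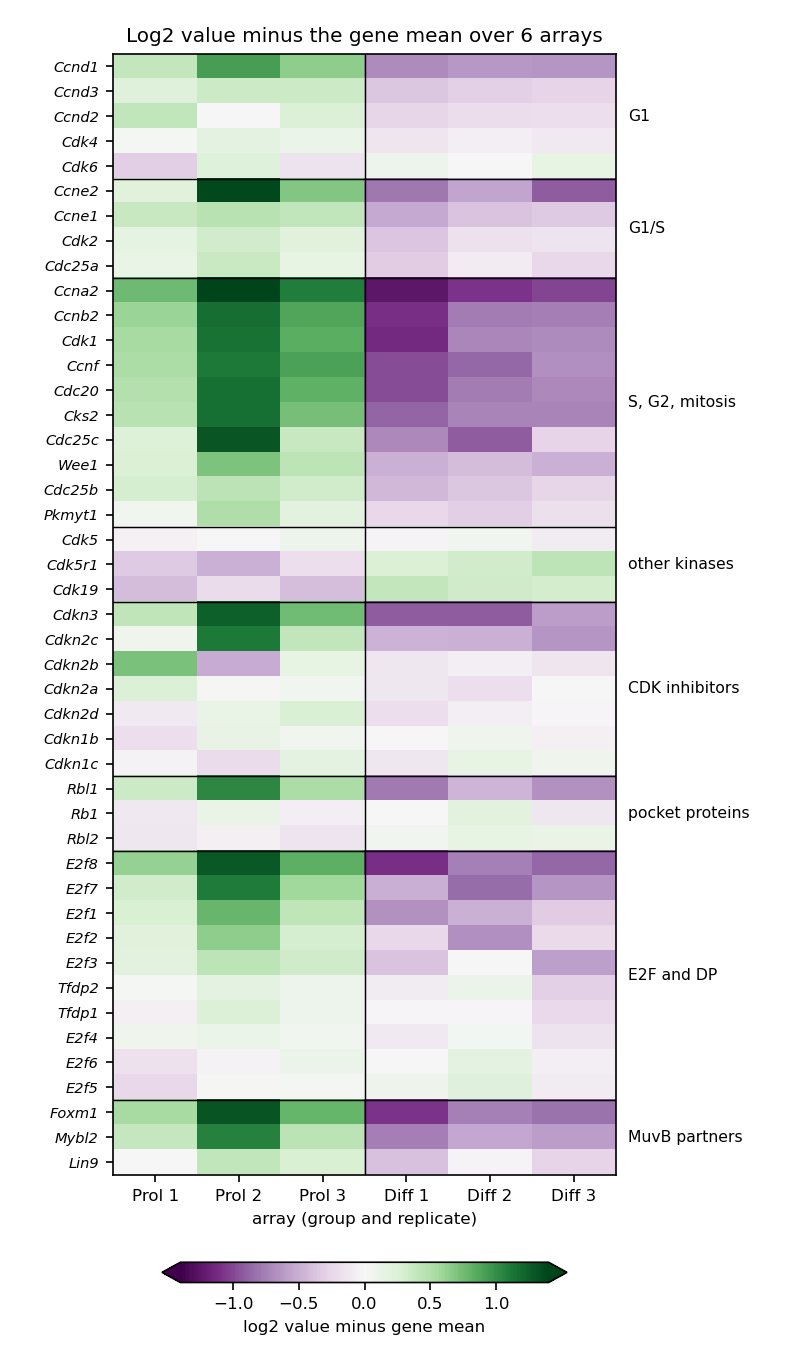
Log2 value of each gene on each of the 6 arrays minus the mean of that gene over the arrays (rows: genes by role, columns: arrays; green: above the gene's mean, purple: below it). Proliferation array 2 is the darkest green column in the S, G2 and mitosis rows, and the rows of the CDK inhibitors other than Cdkn3 and Cdkn2c show no common change.

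The promoters of these genes were read because genes of late cell cycle phases are known to share 2 short elements, the cell cycle genes homology region (CHR) and the CCAAT box. Promoter windows of 300 bases, from 250 before to 50 after the gene start, were given in RefSeq sequences of assembly GRCm38.p6 for 29 of the 45 genes. A CHR was searched as TTTGAA and, in a variant form of the element, as TTCGAA, and the CCAAT box by its name. E2F sites were searched as TTTCCCGC, TTTGGCGC, TTTCGCGC, TTTGCCGC, TTCCCGCC and TTGGCGCC. Both strands were read, and E2F sites can overlap each other. The 150 bases before the gene start are given for 4 lower genes of G2 and mitosis, for the lower gene E2f8 and for 2 kinases that did not pass the test, 5′ to 3′ on the strand of the gene, with all matches on either strand in capitals. These are examples picked from the 29 genes. Lower genes without a CHR, such as Cks2, and genes with a CHR that did not pass the test are not shown. A CHR on the other strand reads TTCAAA and a CCAAT box on the other strand reads ATTGG.
Cdk1 (chr10:69352913-69353062, minus strand): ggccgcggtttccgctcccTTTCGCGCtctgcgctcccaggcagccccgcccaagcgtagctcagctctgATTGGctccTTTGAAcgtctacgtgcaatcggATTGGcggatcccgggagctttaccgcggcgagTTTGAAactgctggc
Ccnb2 (chr9:70421555-70421704, minus strand): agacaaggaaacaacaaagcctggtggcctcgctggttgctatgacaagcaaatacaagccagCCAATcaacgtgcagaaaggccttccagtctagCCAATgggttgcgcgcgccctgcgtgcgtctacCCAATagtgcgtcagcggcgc
Ccnf (chr17:24251410-24251559, minus strand): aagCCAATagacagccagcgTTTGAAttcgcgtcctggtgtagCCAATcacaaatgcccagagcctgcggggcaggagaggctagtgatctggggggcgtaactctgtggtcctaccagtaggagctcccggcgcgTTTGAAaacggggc
Cdc20 (chr4:118437344-118437493, minus strand): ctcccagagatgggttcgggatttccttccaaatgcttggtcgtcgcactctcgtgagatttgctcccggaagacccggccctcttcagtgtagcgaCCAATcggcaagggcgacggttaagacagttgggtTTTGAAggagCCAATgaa
E2f8 (chr7:48881597-48881746, minus strand): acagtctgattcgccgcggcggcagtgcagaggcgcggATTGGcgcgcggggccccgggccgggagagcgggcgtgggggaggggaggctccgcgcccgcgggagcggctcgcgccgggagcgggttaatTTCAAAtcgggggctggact
Cdk4 (chr10:127063385-127063534, plus strand): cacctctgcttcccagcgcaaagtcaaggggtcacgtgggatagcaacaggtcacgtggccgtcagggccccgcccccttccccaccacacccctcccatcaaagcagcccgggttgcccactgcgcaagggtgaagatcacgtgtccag
Cdk2 (chr10:128705052-128705201, minus strand): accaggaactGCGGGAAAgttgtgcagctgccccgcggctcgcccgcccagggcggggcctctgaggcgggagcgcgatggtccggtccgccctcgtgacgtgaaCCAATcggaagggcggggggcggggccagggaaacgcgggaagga

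A CHR started 15 bases before the gene start of Cdk1, 14 bases before that of Ccnf, 18 bases before that of Cdc20 and 20 bases before that of E2f8. Cdk1 and Ccnf held a further CHR upstream. In E2f3, which did not pass the test, a CHR started at -23 bases from a gene start. E2f2, which did not pass it either, held a CHR at -31 bases from a listed start further into the gene, and the window at its more upstream start held none. In Ccnb2, 3 CCAAT boxes lay in the bases shown, and its CHR matches lay outside them, starting at positions -167 and 5 from the gene start. The lower gene Cdc25b, whose bases are not shown, held a CHR starting at position 8. Of the 6 genes of S, G2 and mitosis with a window, 5 held a CHR, all but Cks2, and 6 held a CCAAT box. An E2F site was found in 1, Cdk1. Of all 27025 genes with a window, 21.7% held a CHR, 41.1% a CCAAT box, 9.65% both and 5.11% an E2F site. Among the 14 lower genes with a window, 7 held a CHR, 10 a CCAAT box, 7 both and 3 an E2F site. Among the 15 genes with a window that did not pass the test, 4 held a CHR, 8 a CCAAT box, 2 both and 6 an E2F site. The 4 with a CHR were E2f2, E2f3, Cdkn2b and Rbl2. A gene with several windows was counted as holding a match where any of them did. The windows of Ccne1, E2f1 and Mybl2, which were lower, held none of the exact strings searched, and neither did that of Cdk4. Near variants of the strings were not searched, so this does not show that the elements are absent. The window of E2f1 includes bases before the listed start that encode part of its protein, so it does not show the promoter upstream of the coding sequence. E2f1 is still counted among the 14 lower genes with a window. Whether each listed gene start is the one used in these cultures was not tested. A match is a description of the sequence, and no test was made on these counts.

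**Figure D3:**
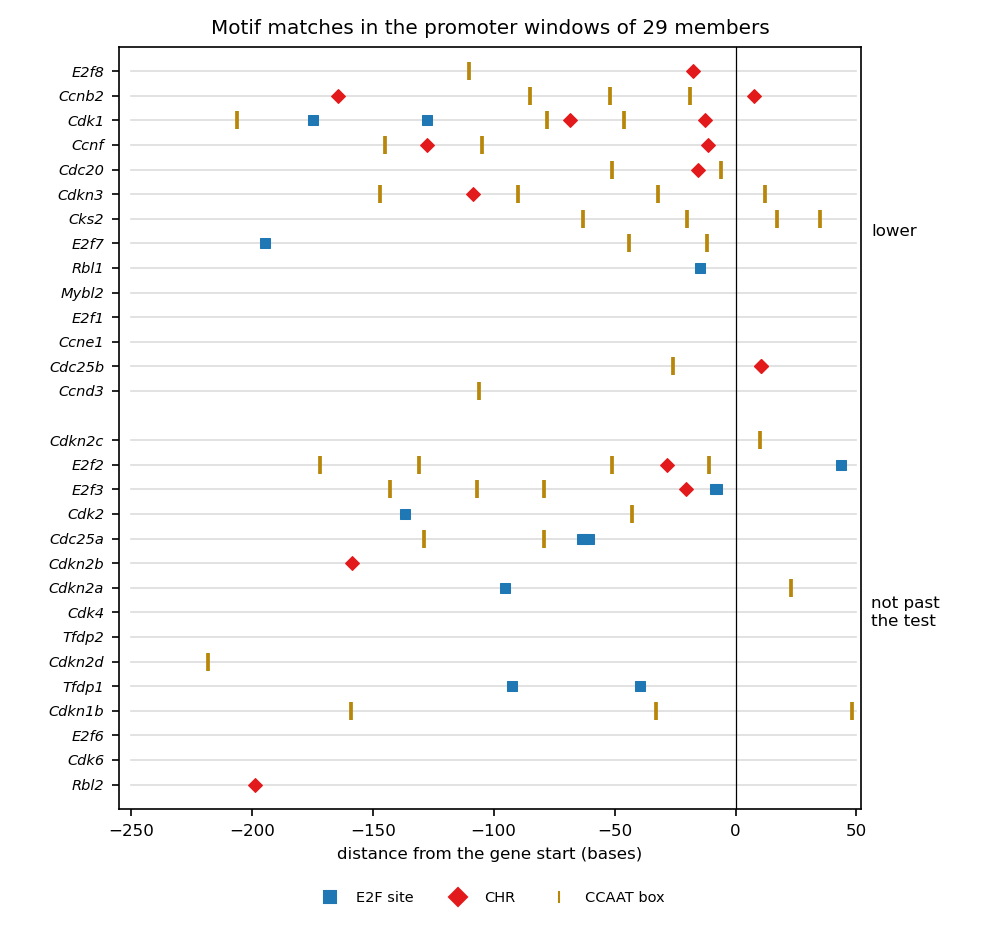
Positions of the E2F site, CHR and CCAAT matches in the promoter windows of the 29 genes with a window, in bases from the gene start (upper block: lower genes by size of change, lower block: genes that did not pass the test; for genes with several windows the matches of all are drawn). A CHR match lies close to the gene start in the lower genes Cdk1, Ccnf, Cdc20, E2f8, Ccnb2 and Cdc25b. The same holds for E2f3 and, only in a window further into the gene, for E2f2, which did not pass the test.

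Of the 3 genes of the MuvB complex and its partners, which switch on the genes of G2 and mitosis, 2 were lower, both of them partners. Foxm1 was at 9.04, 9.79 and 9.28 in proliferation and at 7.41, 7.73 and 7.65 in differentiation (difference -1.77, SE 0.20, 3.41-fold, adjusted p = 0.00685), a call that held without any single array. Mybl2, which encodes B-MYB, was at 7.83, 8.52 and 7.89 in proliferation and at 6.69, 6.91 and 6.85 in differentiation. Its difference was -1.26 (SE 0.19, adjusted p = 0.0165), and the call was lost without proliferation array 3 or without any 1 of the differentiation arrays (adjusted p up to 0.0909). In both genes all 3 differentiation arrays lay below the proliferation arrays. Lin9, a core subunit of MuvB, was at 6.74, 7.16 and 7.02 in proliferation and at 6.36, 6.72 and 6.47 in differentiation. Its groups came within 0.023 of each other, and the difference of -0.46 (SE 0.14) did not pass the test (adjusted p = 0.17).

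Within the E2F family, an activator and both atypical factors were lower. The activators E2f1, E2f2 and E2f3 had a median difference of -0.76, and E2f1 passed the test. E2f1 was at 9.18, 9.68 and 9.32 in proliferation and at 8.24, 8.41 and 8.58 in differentiation (difference -0.98, SE 0.15, 1.98-fold, adjusted p = 0.0191; lost without proliferation array 3 or differentiation array 1 or 2, adjusted p up to 0.0959). E2f2 had a difference of -0.76 (SE 0.17, adjusted p = 0.0617). E2f3 had one of -0.64 (SE 0.16, adjusted p = 0.0905), and was called without differentiation array 2 (adjusted p = 0.0427). The groups of all 3 activators did not overlap. E2f4, the factor of the DREAM repressor, was at 9.19, 9.23 and 9.17 in proliferation and at 9.02, 9.16 and 8.96 in differentiation (difference -0.15, SE 0.09, adjusted p = 0.469). E2f5 had a difference of 0.13 (adjusted p = 0.689) and E2f6 one of 0.06 (adjusted p = 0.846). Of the atypical factors, which repress E2F targets and need no DP partner, both were lower. E2f8 was at 8.72, 9.39 and 8.93 in proliferation and at 7.01, 7.35 and 7.23 in differentiation (difference -1.82, SE 0.18, 3.52-fold, adjusted p = 0.00541), and held without any single array. E2f7 was at 8.07, 8.85 and 8.32 in proliferation and at 7.25, 6.91 and 7.11 in differentiation (difference -1.32, SE 0.20, adjusted p = 0.0179; lost without proliferation array 3 or any 1 of the differentiation arrays, adjusted p up to 0.0733). In each of these lower factors the groups lay apart. The DP partners Tfdp1 and Tfdp2 had differences of -0.19 each (adjusted p = 0.514 and 0.512), with overlapping groups.

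Of the 3 pocket proteins, which bind E2F factors, 1 was lower. Rbl1, which encodes p107, was at 8.20, 8.88 and 8.37 in proliferation and at 7.07, 7.38 and 7.18 in differentiation. It was lower by 2.42-fold (difference -1.27, SE 0.19, adjusted p = 0.0153), and the call was lost without proliferation array 3 or differentiation array 1 or 3 (adjusted p up to 0.0829). Rb1 had a difference of 0.04 (SE 0.12, adjusted p = 0.912) with overlapping groups. Rbl2, which encodes p130, the pocket protein typical of resting cells, was at 8.61, 8.67 and 8.58 in proliferation and at 8.78, 8.87 and 8.86 in differentiation. Every differentiation array of Rbl2 was above every proliferation array, but the difference of 0.22 (SE 0.08) was small and did not pass the test (adjusted p = 0.223).

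Of the 4 INK4 inhibitors and the 2 CIP/KIP inhibitors among the 45 genes, Cdkn1b and Cdkn1c, none was called in either direction, although Cdkn2c was negative with an unadjusted p under 0.05. Cdkn1a, which is also of the CIP/KIP family, was not on the lists used here, so its change is not covered. An inhibitor outside these families, Cdkn3, was lower. Cdkn3, a phosphatase that acts on CDK1 and CDK2 and is itself transcribed in dividing cells, was at 7.40, 8.22 and 7.73 in proliferation and at 6.07, 6.07 and 6.38 in differentiation. Its difference was -1.61 (SE 0.21, 3.05-fold, adjusted p = 0.0107; lost without proliferation array 3 or differentiation array 1, adjusted p up to 0.067). Cdkn1b, a CIP/KIP inhibitor that accumulates in many cells that leave the cycle, was at 10.40, 10.73 and 10.64 in proliferation and at 10.61, 10.68 and 10.54 in differentiation. The groups of Cdkn1b overlapped, and the difference of 0.01 had a 95% interval from -0.25 to 0.27 (adjusted p = 0.976). Cdkn1c, of the same family, had a difference of 0.06 with an interval from -0.25 to 0.36 (adjusted p = 0.883). The proteins were not measured.

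Among the INK4 inhibitors, which bind CDK4 and CDK6, Cdkn2c had the largest difference. It was at 8.67, 9.72 and 9.01 in proliferation and at 8.13, 8.12 and 7.96 in differentiation (difference -1.06, SE 0.25, adjusted p = 0.0743). The groups of Cdkn2c did not overlap, and it was called without proliferation array 1 or without proliferation array 2 (lowest adjusted p = 0.0371). Cdkn2b was at 9.60, 8.35 and 9.02 in proliferation and at 8.75, 8.80 and 8.74 in differentiation. For Cdkn2b the proliferation arrays lay on both sides of the differentiation arrays, with array 1 the highest and array 2 the lowest, the reverse of their order in the lower genes (difference -0.23, SE 0.28, adjusted p = 0.779). Cdkn2d had a difference of -0.19 (adjusted p = 0.519). Cdkn2a, whose cluster cannot tell its INK4 and ARF products apart, had one of -0.21 (adjusted p = 0.402), with groups 0.003 apart.

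**Figure D4:**
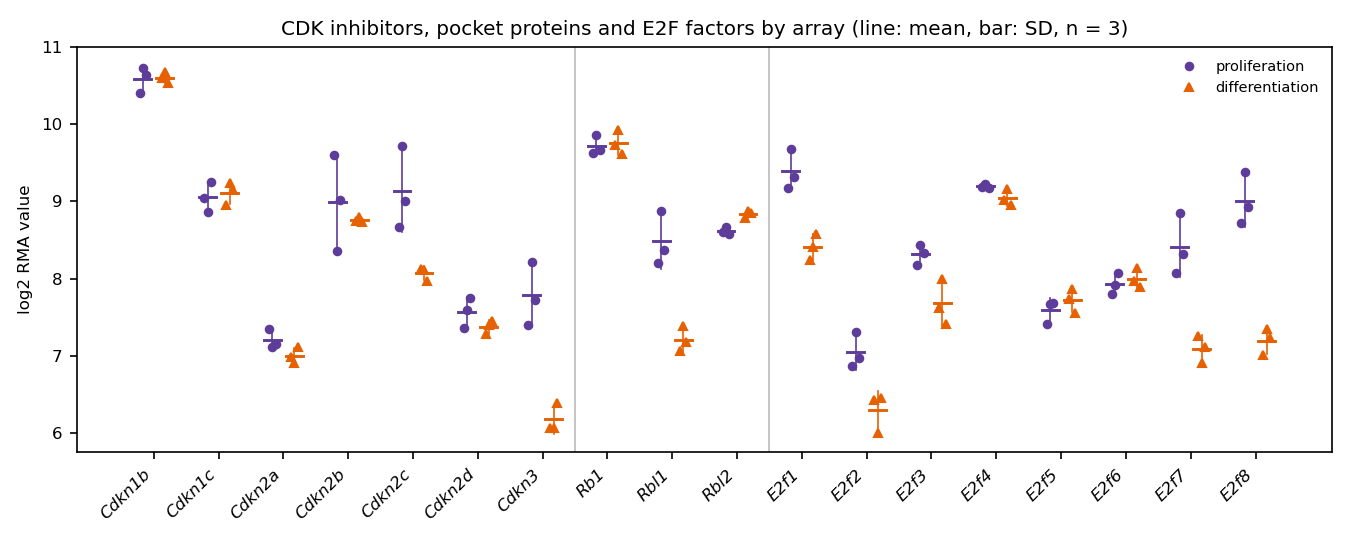
Log2 RMA values of the 7 CDK inhibitors, 3 pocket proteins and 8 E2F factors on each array (circles: proliferation, triangles: differentiation, horizontal line: mean, vertical bar: SD, n = 3 per group). Cdkn3, Rbl1, E2f1, E2f7 and E2f8 are lower in differentiation, Cdkn1b and Rb1 overlap between the groups, and Cdkn2b is spread in proliferation (SD 0.62) and narrow in differentiation (SD 0.03).

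The 2 higher genes belonged to kinases that do not drive a cell cycle phase. Cdk19, a kinase of the Mediator complex of transcription, was at 9.78, 9.99 and 9.78 in proliferation and at 10.60, 10.53 and 10.51 in differentiation (difference 0.70, SE 0.09, 1.62-fold, adjusted p = 0.0108; lost without proliferation array 3 or differentiation array 1, adjusted p up to 0.0721). Cdk5r1, the activator of CDK5 known from postmitotic neurons, was at 7.24, 7.08 and 7.37 in proliferation and at 7.82, 7.89 and 8.01 in differentiation (difference 0.68, SE 0.10, 1.60-fold, adjusted p = 0.0179; lost without any 1 of the differentiation arrays, adjusted p up to 0.0756). In both genes all differentiation arrays were above all proliferation arrays. Cdk5, the kinase that the product of Cdk5r1 activates, had a difference of -0.04 (SE 0.09, adjusted p = 0.889) and overlapping groups.

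Whether related genes changed by different amounts was examined by the difference between both genes on each array, in 11 pairs. With 3 arrays per group the exact two-sided permutation test cannot give a p below 0.1, so no pair can pass a threshold of 0.05. In 9 of the 11 pairs the values of the groups did not overlap (exact permutation p = 0.1, 0.122 after Benjamini-Hochberg adjustment over the pairs). Ccna2 fell by 1.39 more than Ccne1, and Cdk1 by 1.23 more than Cdk2, on the log2 scale. Between Ccnd1 and Ccnd2 the changes differed by -0.87, and between Ccnd1 and Ccnd3 by -0.69. Rbl1 and Rbl2 differed by -1.49, E2f1 and E2f4 by -0.83, E2f8 and E2f7 by -0.49, and Cdkn2c and Cdkn1b by -1.08. Cdk6 and Cdk4 differed by 0.37. The cyclins Ccne2 and Ccne1 (-0.68) and the phosphatases Cdc25c and Cdc25b (-0.56) had overlapping values (exact permutation p = 0.2).

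**Figure D5:**
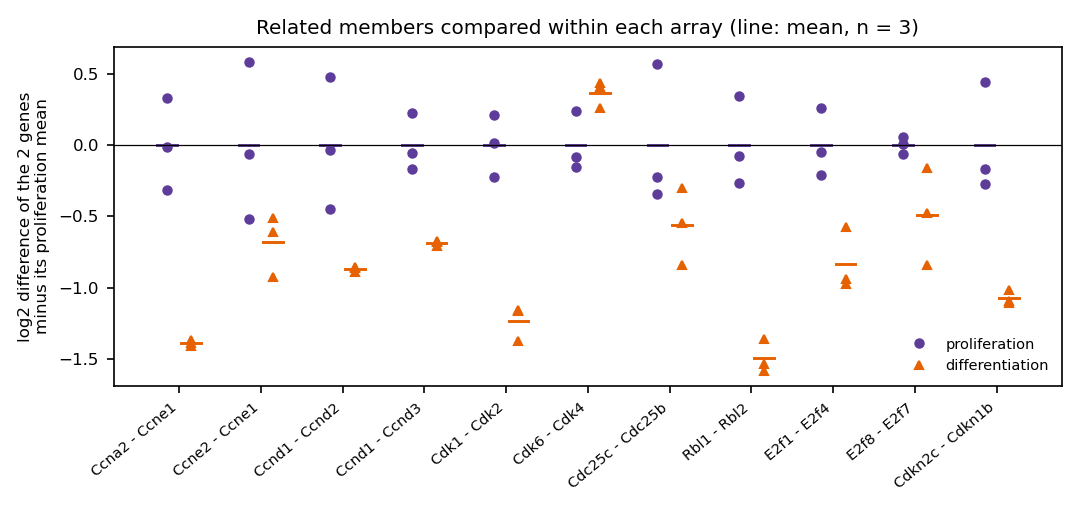
Difference in log2 value between the genes of each of the 11 pairs on each array, with the mean of the proliferation arrays set to 0 (circles: proliferation, triangles: differentiation, short lines: means, n = 3 per group). The widest separation is that of Rbl1 and Rbl2, -1.49, and the values overlap for Ccne2 and Ccne1 and for Cdc25c and Cdc25b.

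The arrays of 1 group had a common order across the lower genes. In 19 of the 19 lower genes proliferation array 2 was the highest and proliferation array 1 the lowest of its group, whereas over all clusters array 2 was the highest in 33.1% and array 1 the lowest in 30.9%. Differentiation array 1 was the lowest of its group in 16 of the 19, beside 29.4% of all clusters. The 766 clusters that were lower leaned the same way, with proliferation array 2 the highest in 62.1%, proliferation array 1 the lowest in 60.6% and differentiation array 1 the lowest in 59.1%. The SD was larger in proliferation than in differentiation for 17 of the 19 lower genes, or 89.5%, and for 74.4% of all clusters that were lower. The median SD of the lower genes was 0.332 in proliferation and 0.151 in differentiation, beside 0.129 and 0.123 over all clusters. The 19 genes are therefore not 19 separate measurements, and which property of the cultures goes with this order was not tested.

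Other genes of the pathway were taken from lists fixed by name, and their counts stand beside the 2.15% of all clusters that were lower and the 1.95% that were higher. Of 19 other cyclins listed, 18 were measured. Ccnb1, which encodes cyclin B1, had no cluster with its symbol alone, so its change is not covered here. Of the 18 measured, 1 was lower (Ccng1, difference -0.55, adjusted p = 0.032) and none higher. The call of Ccng1 held without proliferation array 2 but was lost without any 1 of the other arrays (adjusted p up to 0.156). Of 16 other CDKs and activators, 1 was lower (Cks1b, -1.24, adjusted p = 0.00365). Of 7 other MuvB, DREAM and MYB genes, 1 was lower (Mybl1, which encodes A-MYB, -1.66, adjusted p = 0.00571). The calls of Cks1b and Mybl1 held without any single array. The medians of these lists were -0.11, 0.01 and -0.12, beside 0.025 for all clusters. Of 20 ubiquitin ligase genes and inhibitors of cell cycle control, 3 were lower, namely Ube2c (-1.73, adjusted p = 0.00318), Fbxo5 (-1.59, adjusted p = 0.0113) and Skp2 (-0.88, adjusted p = 0.0111), and none was higher. Ube2c held without any single array, while Fbxo5 and Skp2 were lost without proliferation array 3 or differentiation array 1 (adjusted p up to 0.067 and 0.0695). Of the genes of origin licensing, which loads the replicative helicase, all 15 had a negative difference (median -0.56) and 6 were lower, Mcm3 (-1.38, adjusted p = 0.00645), Mcm5 (-1.27, adjusted p = 0.00821), Mcm2 (-1.09, adjusted p = 0.00973), Cdc6 (-0.95, adjusted p = 0.0464), Mcm4 (-0.78, adjusted p = 0.0203) and Cdt1 (-0.61, adjusted p = 0.0153). Of these, Mcm3 held without any single array, and the other licensing calls were lost without differentiation array 1. Cdc6 was also lost without differentiation array 2 or any 1 of the proliferation arrays (adjusted p up to 0.184), Mcm4 without proliferation array 3 or differentiation array 3 (adjusted p up to 0.106) and Cdt1 without proliferation array 3 or differentiation array 2 (adjusted p up to 0.0816).

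The makeup of the cultures was read from marker lists of the cell types that the gut wall holds. All 10 measured markers of enteric progenitors and glia were above the median cluster, as were 8 of 10 neuron markers, 6 of 10 smooth muscle markers, 5 of 5 markers of interstitial cells of Cajal and 8 of 8 fibroblast markers. Of the macrophage markers 0 of 6 reached it, of the epithelial markers 1 of 7 and of the endothelial markers 2 of 6. Markers of several types moved with the group. The progenitor and glia list held 3 higher genes (Nes 1.27, Gfap 1.16 and Ngfr 0.79) and 2 lower genes (Fabp7 -1.07 and S100b -0.74), and its summed level was between 14.28 and 14.58 in proliferation and between 14.54 and 14.59 in differentiation. The smooth muscle list held 4 higher genes, among them Tagln (1.44), Actg2 (1.22) and Acta2 (0.76), and 1 lower gene, Smtn (-0.83), and its summed level was between 11.21 and 11.37 in proliferation and between 11.38 and 11.51 in differentiation. Ano1, a marker of interstitial cells of Cajal, was lower (-1.43), and the summed level of that list was between 12.80 and 13.18 in proliferation and between 12.44 and 12.58 in differentiation. All 5 markers of that list had a negative difference (median -0.59), with overlapping groups in 2. Of them, Kit lay just above the threshold (-0.85, limma adjusted p = 0.0501). Tubb3 (0.98) was the 1 called gene of the 10 neuron markers, of which 6 had a positive and 4 a negative difference. Dpt (1.20) was the 1 called gene of the 8 fibroblast markers, of which 7 had a positive difference. The calls of Nes, Tagln, Actg2 and Dpt held without any single array, whereas the other called markers were lost at least without differentiation array 1 (adjusted p up to 0.128), and Tubb3 also without proliferation array 1 or either of the other differentiation arrays (adjusted p up to 0.0994). The summed level of the neuron list was between 12.89 and 13.42 in proliferation and between 13.27 and 13.46 in differentiation, and that of the fibroblast list between 13.56 and 14.13 and between 13.89 and 14.02. What part these shifts have in the changes of the cell cycle genes was not tested.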

How the data were processed

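Gene expression was measured in 6 samples with 1 array each, 3 of proliferation and 3 of differentiation, grouped by the labels. According to the methods of the study, the authors used AGCC and Expression Console for the scans and Partek Software for RMA. The deposited values are log2 intensities after RMA, 1 per transcript cluster and array. RMA equalises the distributions of the arrays, which hides any change common to most transcripts. The genome build of the array annotation is not given in the sources used here. Depth does not apply to arrays, and their number limits the precision.

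Symbols came from the annotation of the platform: 21789 of the 35556 clusters carried 1 symbol, 1621 several and 12146 none. Groups were compared with limma 3.58.1 (R 4.3.3), lmFit and eBayes, two-sided, with no filter and no minimum fold. All members were named, together with the called genes of the pathway lists, up to 6 per list, and up to 3 called markers per list. Pairs were compared by exact permutation (scipy 1.17.1), and tables were handled with pandas 2.3.3 (Python 3.11.15). Tested on simulated data with the spread of all 35556 clusters, limma recovered 35.8% of clusters changed 1.5-fold, 62.9% at 2-fold and 88.9% at 4-fold. The simulation changed 67, 70 and 63 clusters at these folds and gave 129 calls, against 1459 in the data. Its noise was independent between clusters, without the shared order of arrays. The shares therefore do not give the recovery in these data. Members and lists were chosen with earlier results of these data known. Where labels and methods differ on culture details (number of mice, phase lengths, EGF dose, use of B27), the text follows the labels or gives both. Promoter sequences are RefSeq sequences of GRCm38.p6, and the 16 genes without a window are named only. Authors' comparisons were not used.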

Additional observations from a re-analysis of the deposited data

How the results depend on the processing

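No gene changed direction past the test under any alternative. Of the 21 calls, 10 held without any single array, and the number of calls rested on single arrays: without 1 array, 294 to 1297 clusters were called in place of 1459 (294 without differentiation array 1, 480 without proliferation array 3), 10 to 21 genes of the 45 were lower in place of 19 (10 and 11 without these arrays) and 0 to 2 were higher. With the replicate number as a replicate block, 664 clusters were called, 17 genes were lower and 0 higher, with Ccnd3, E2f7, Cdk5r1 and Cdk19 lost. Over all clusters, deviations of arrays with the same number correlated at -0.003, 0.09 and -0.074. The methods of the study describe independent experiments in which picked spheroids were moved to either medium, so each experiment may have supplied both groups. The labels do not tie the replicate numbers to an experiment, so these numbers were not taken as pairs. A correlation over all clusters cannot settle whether the arrays were paired. With array weights, 12721 clusters were called and 33 genes lower. Adjusted by Benjamini-Hochberg, the methods' t-test called 253 clusters and 2 genes (Ccnd3 and Ccne1) lower and 0 higher, and uncorrected with 1.5-fold it called 1454 clusters and 23 genes lower. The number of lower genes rose to 26 or 27 where the adjustment ran over brighter clusters, clusters with 1 symbol or genes alone. The median of the G1 genes was -0.48 with median centring, -0.50 with array weights and between -0.55 and -0.35 without 1 array. Medians with array weights were -0.74 for G1/S and 0.50 for the other kinases. Without 1 array they ranged from -1.76 to -1.42 for S, G2 and mitosis and from 0.60 to 0.68 for the other kinases. Signal over background was not analysed here, and 0 genes lay below the median cluster in both groups.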

Other observations

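Among the 45 genes, 4 had further clusters with their symbol alone. Both other clusters of Cks2 were lower as well, by -1.53 each (limma adjusted p = 0.00952 and 0.00923). The other cluster of Cdkn1b had a difference of 0.20 (adjusted p = 0.671), that of E2f3 one of -0.27 (adjusted p = 0.182) and that of Tfdp1 one of -0.31 (adjusted p = 0.143). For Tfdp1 the groups of the other cluster did not overlap, whereas those of the cluster used above did.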
